A study of Mus musculus with 4 samples.

Results

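The genes described here are 9 proneural and neuroendocrine transcription factors, Neurod1, Neurod2, Neurod4, Neurog1, Neurog2, Neurog3, Atoh1, Bhlhe22 and Insm1. They are listed by name, as a group of related function put together with earlier results of these data known, and are 9 of 21951 protein-coding genes of the GENCODE M21 annotation. Occupancy of Eya1, a phosphatase and transcriptional coactivator that does not bind DNA by itself, was measured by chromatin immunoprecipitation and sequencing (ChIP-seq) in mouse kidneys at E13.5. The embryos carried an Eya1 HA-FLAG knockin allele, which tags the endogenous protein, and anti-FLAG beads were used for the pull-down from 80 pooled kidneys per assay. The series held 4 samples, of which 2 were Eya1 ChIP replicates and the others 1 input and 1 IgG control. Neither control was analysed here, and the Eya1 peaks are given without a control list. The labels do not say whether the replicates came from separate litters, and whole kidneys hold many cell types that these data do not separate.

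Proneural factors of the Neurog, Neurod and Atoh families are basic helix-loop-helix (bHLH) proteins that pair with E proteins, bind E-box sequences and commit progenitors to neuronal and related fates. Many neuronal genes are kept silent in non-neuronal cells, in part by REST (also called NRSF). It is a zinc-finger repressor that binds an element called RE1 and brings in histone deacetylases and other corepressors. RE1 has a left arm (TTCAGCACC) and a right arm (GGACAG), which in the canonical element are 2 bases apart, so that the whole element spans 17 bases. An RE1 here is a match to a degenerate form of this consensus with at most 2 mismatches, on either strand. It is a sequence property and no measurement of REST binding. The peaks measure occupancy only, and expression of these genes was not analysed here.

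The element sequences are shown first because all 7 peaks found near these genes held an RE1. Of all peaks, 17.5% in replicate 1 and 17.4% in replicate 2 held one. However, 5 of the 7 were replicate 2 peaks over 1 kb from every annotated start site, a class in which 75.7% held one. There were 6 distinct elements in the 7 peaks, since 1 peak of each list shared an element at Neurod1. Each line below gives 1 of 5 of these elements 5′ to 3′ on its own strand with 4 bases on either side, from the GRCm38 (mm10) reference. Capitals mark bases that match the consensus, and lower case letters inside the element mark mismatches.
Neurod1 coding exon, chr2:79454331-79454347 (minus strand): gcccTaCgGCACCATGGACAGctcc
Neurod1 upstream, chr2:79460825-79460841 (plus strand): cagaaTCAGCACCGTGGACAacgcc
Neurod2 far, chr11:98314245-98314261 (minus strand): tggtTTCAGCACCACGGACAGagac
Neurog3, chr10:62138215-62138231 (minus strand): ttgtTTCAGCACCATGGtCAGggcc
Insm1, chr2:146226718-146226734 (plus strand): tcttggTAGCACCATGGACAGagga

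The lists gave the position and width of each peak and no height. In replicate 1, 4041 peaks were within 1 kb of an annotated start site and 236 were not, and the median width of all peaks was 1069 bp. In replicate 2 these were 3545 and 630 peaks, and the median width was 188 bp. The depth behind a peak is unknown, so a gene with no listed peak is a gene below the authors' calling threshold and not one shown to lack Eya1. Because the lists differ this much in width, each count below is given for each replicate.

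A promoter peak, defined as a peak within 1 kb of an annotated transcription start site (TSS) of the gene, was found at 0 of the 9 genes in either replicate. Among all protein-coding genes the share with a promoter peak was 20.2% in replicate 1, 14.7% in replicate 2 and 23.5% in either. Only Neurod1 had a peak in its gene body, in both replicates, which is 11.1% of the 9 genes. The share of all protein-coding genes with a gene-body peak was 20.4% in replicate 1, 14.5% in replicate 2 and 23.9% in either. When a gene-body peak was required in both replicates, the share of all protein-coding genes was close to the 11.1% of the 9 genes. With 9 genes, a difference of 1 gene moves the share by 11.1 percentage points.

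A peak within 50 kb of a TSS was listed for 1 gene in replicate 1 (Neurod1) and for 4 genes in replicate 2 (Neurod1, Neurod2, Neurog3 and Insm1), a mean of 2.5 ± 2.12 genes (SD, n = 2). The replicate 2 count is 44.4% of the 9 genes. The same rule was met by 40.7% of all protein-coding genes in replicate 1, 33.5% in replicate 2 and 45.9% in either. The share of the 9 genes was thus below that background in replicate 1 (11.1%), above it in replicate 2 and close to it in either list (44.4%). A peak within 50 kb in both lists was found for 1 of the 9 genes (11.1%), against 28.4% of all protein-coding genes. Distal peaks, defined as peaks over 1 kb from every annotated TSS, were within 50 kb of 0 genes in replicate 1 and of Neurod1, Neurod2, Neurog3 and Insm1 in replicate 2, a mean of 2.0 ± 2.83 (SD, n = 2). The background for a distal peak was 1.61% of all protein-coding genes in replicate 1, 3.71% in replicate 2 and 4.04% in either. Since the replicate 1 count was 0, the count of distal peaks rests on replicate 2, and with 2 replicates the SD exceeded the mean.

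A peak with an RE1 lay within 50 kb of 1 gene in replicate 1 and of 4 genes in replicate 2, again a mean of 2.5 ± 2.12 (SD, n = 2). Among all protein-coding genes the shares were 8.85% in replicate 1, 5.67% in replicate 2 and 11.1% in either. Those 4 genes had an RE1 peak and no promoter peak, a pattern met by 5.88% of all protein-coding genes. No test was made on these counts, because of how the genes were chosen and because neighbouring genes share peaks.

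**Figure D1:**
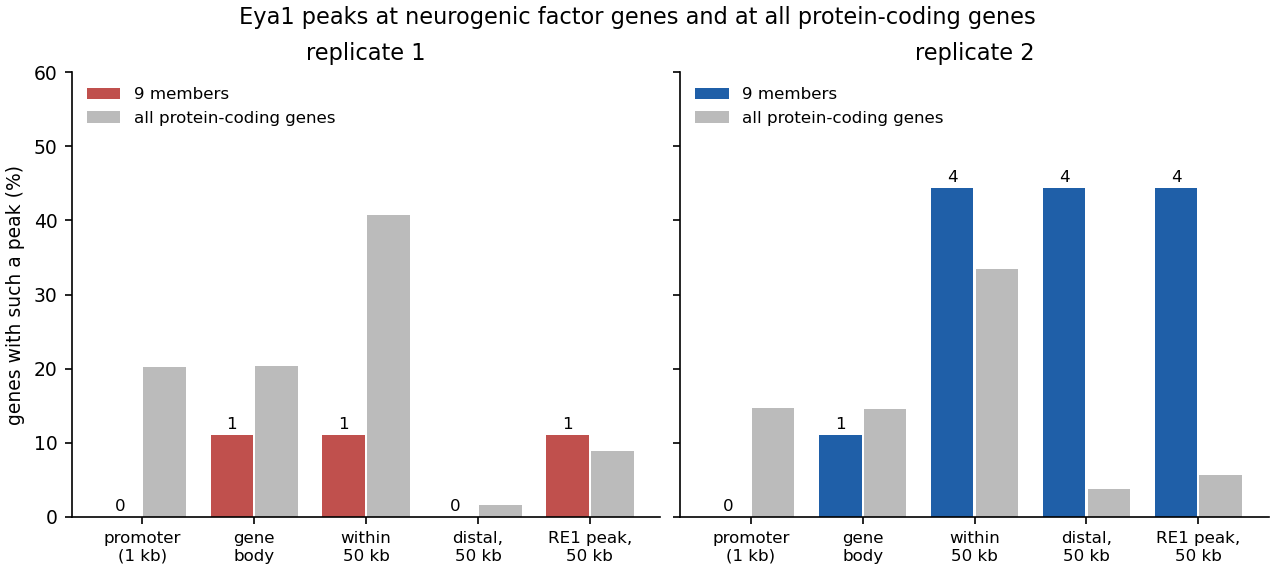
Percentage of the 9 neurogenic factor genes (coloured bars, with the number of genes above) and of all 21951 protein-coding genes (grey bars) that had an Eya1 peak by each of 5 rules, in replicate 1 (left) and replicate 2 (right). No promoter peak was listed for the 9 genes, while in replicate 2 a distal peak and an RE1 peak were each listed for the same 4 of them (44.4%), against 3.71% and 5.67% of all genes. In replicate 1 a distal peak was listed for 0 of them, against 1.61% of all genes. An RE1 peak was listed there for 1 (11.1%), against 8.85%.

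Neurod1, a bHLH factor of neuronal and pancreatic endocrine differentiation, was the only gene of the 9 with a peak within 50 kb in both replicates. It lies on chromosome 2 from 79452521 to 79456751 on the minus strand and has 2 exons. The replicate 1 peak at chr2:79453955-79454991 was 1037 bp wide, near the middle of its list, where 47.0% of peaks were narrower. It lay wholly within the second exon of Neurod1, with 1025 bp in the coding sequence and 12 bp in the untranslated region, and its nearer edge was 1.76 kb downstream of the TSS. The replicate 2 peak at chr2:79454264-79454508 was 245 bp wide, lay wholly within the replicate 1 peak and consisted of coding sequence along its whole length. Neither peak reached to within 1 kb of the Neurod1 start site.

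The RE1 in both of these peaks was the same element, with 2 mismatches (T2A and A4G, where the consensus base comes first and positions count from 1 at the 5′ end of the element). Its centre was 134 bp from the midpoint of the replicate 1 peak and 47 bp from that of the replicate 2 peak. Whereas the other 5 elements lay within 14 bp of a midpoint, this one was the least central, and its peak was the widest of the 6 replicate 2 peaks (92.5% of distal RE1 peaks in replicate 2 were narrower). The whole replicate 2 peak is given on the strand of the element, which is also the coding strand of Neurod1, with the element in capitals.
Neurod1 coding exon peak, chr2:79454264-79454508 (minus strand): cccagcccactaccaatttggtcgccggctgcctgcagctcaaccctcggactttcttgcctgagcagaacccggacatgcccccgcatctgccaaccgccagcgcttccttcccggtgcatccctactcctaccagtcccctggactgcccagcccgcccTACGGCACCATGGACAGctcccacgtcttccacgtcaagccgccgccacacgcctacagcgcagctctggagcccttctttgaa

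Assignment of these peaks to Neurod1 is not unique. A long noncoding RNA, Gm26755, runs on the opposite strand, and its annotated start falls inside the replicate 1 peak and 279 bp from the replicate 2 peak. Both peaks therefore counted as promoter-proximal by the 1 kb rule, through Gm26755 and not through Neurod1. They also lie within the span of Cerkl, a protein-coding gene on the same strand as Neurod1, where they overlap 0 bp of its exons.

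Replicate 2 had another peak upstream of Neurod1 at chr2:79460769-79460903, 135 bp wide, with its midpoint 4.08 kb upstream of the TSS. It lay wholly within an exon of Gm26755, and the nearest protein-coding TSS was that of Cerkl at 3.98 kb. Its RE1, with mismatches T1A and G17A, was centred 3 bp from the peak midpoint. No replicate 1 peak overlapped it.

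**Figure D2:**
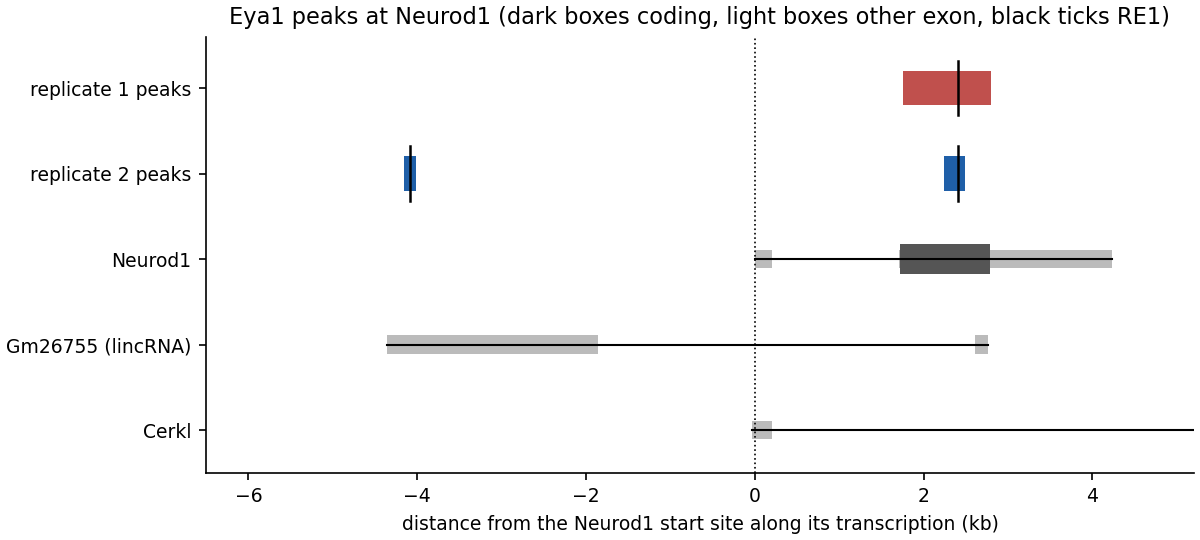
Eya1 peaks at Neurod1, drawn to scale along its direction of transcription (x axis, distance from the Neurod1 TSS in kb), with rows for the peaks of each replicate and for 3 annotated genes (line, gene span; light box, exon; dark box, coding sequence of Neurod1; black tick, RE1). The replicate 1 peak (1037 bp) and a replicate 2 peak (245 bp) share an element in the coding exon, and the upstream peak (135 bp) was listed in replicate 2 only.

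Neurod2, a bHLH factor of differentiated forebrain neurons, had 2 peaks in replicate 2 and none within 50 kb in replicate 1. The gene lies on chromosome 11 from 98325415 to 98329648 on the minus strand, and both peaks were intergenic and downstream of it. The peak nearer to the gene was 140 bp wide with its midpoint 5.48 kb from the TSS. The farther peak, at chr11:98314175-98314325, was 151 bp wide and its midpoint was 15.4 kb from the TSS. Its element was the only RE1 with 0 mismatches within 50 kb of any of the 9 genes, and its centre lay 3 bp from the peak midpoint. The nearest replicate 1 peak was 125 kb from the Neurod2 TSS, at the start of Cdk12.

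The element in the nearer Neurod2 peak had 2 mismatches and was centred 2 bp from the midpoint. Arms at a spacing other than 2 bases (0 to 12 searched, with at most 1 mismatch in the left arm) were present in 1 of the 6 replicate 2 peaks at these genes, in 2.43% of all replicate 2 peaks and in 7.62% of the distal ones, within 200-bp windows on the midpoint.

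Neurog3, the bHLH factor that specifies endocrine cells of the pancreas, had 1 peak in replicate 2 at chr10:62138169-62138305. The gene lies on chromosome 10 from 62133090 to 62134763 on the plus strand. The peak was 137 bp wide, and its midpoint was 5.06 kb downstream of the TSS. It lay in an intron of Fam241b, a neighbouring gene whose TSS was closer to the peak (1.56 kb) than that of Neurog3 (4.99 kb). Its RE1 had 1 mismatch (M14T, where M stands for A or C) and an intact left arm, and was centred 14 bp from the peak midpoint. In replicate 1 the nearest peak to Neurog3 was 316 kb away.
Neurog3 peak, chr10:62138169-62138305 (minus strand): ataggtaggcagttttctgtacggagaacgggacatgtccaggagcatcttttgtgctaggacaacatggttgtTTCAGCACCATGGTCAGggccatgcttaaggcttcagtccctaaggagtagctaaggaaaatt

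Insm1, a zinc-finger factor of neuroendocrine cells, had 1 intergenic peak in replicate 2 at chr2:146226649-146226808. The gene is a single-exon gene on chromosome 2 from 146221921 to 146225020 on the plus strand. The peak was 160 bp wide with its midpoint 4.81 kb from the TSS, which is beyond the 3′ end of the gene. Its RE1 had 2 mismatches, T1G and T2G, both at the outer end of the left arm, and was centred 2 bp from the midpoint. The nearest replicate 1 peak was 318 kb from Insm1, at Naa20.
Insm1 peak, chr2:146226649-146226808 (plus strand): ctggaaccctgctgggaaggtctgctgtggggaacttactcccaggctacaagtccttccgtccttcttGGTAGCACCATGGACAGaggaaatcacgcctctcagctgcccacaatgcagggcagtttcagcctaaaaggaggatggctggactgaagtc

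No peak lay within 50 kb of the remaining 5 genes in either list. For Neurog2, a proneural bHLH factor, the nearest peak was 79.2 kb away in replicate 1, at the promoter of Larp7, and 1901 kb away in replicate 2. For Neurog1, which specifies cranial sensory neurons, it was 116 kb away in replicate 1 and 117 kb in replicate 2, at H2afy in both. Atoh1, the bHLH factor of hair cells, cerebellar granule neurons and secretory gut cells, had its nearest peak at Smarcad1 in both lists, 313 kb and 314 kb away. Neurod4 (a bHLH factor of neuronal differentiation) and Bhlhe22 (a bHLH factor that acts mostly as a repressor) had no peak within 1 Mb, with distances of 1356 and 1357 kb for Neurod4 and of 1256 and 1109 kb for Bhlhe22 in replicates 1 and 2. For Neurod4, Neurog1 and Atoh1 the nearest peak was therefore at the same gene in both lists.

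**Figure D3:**
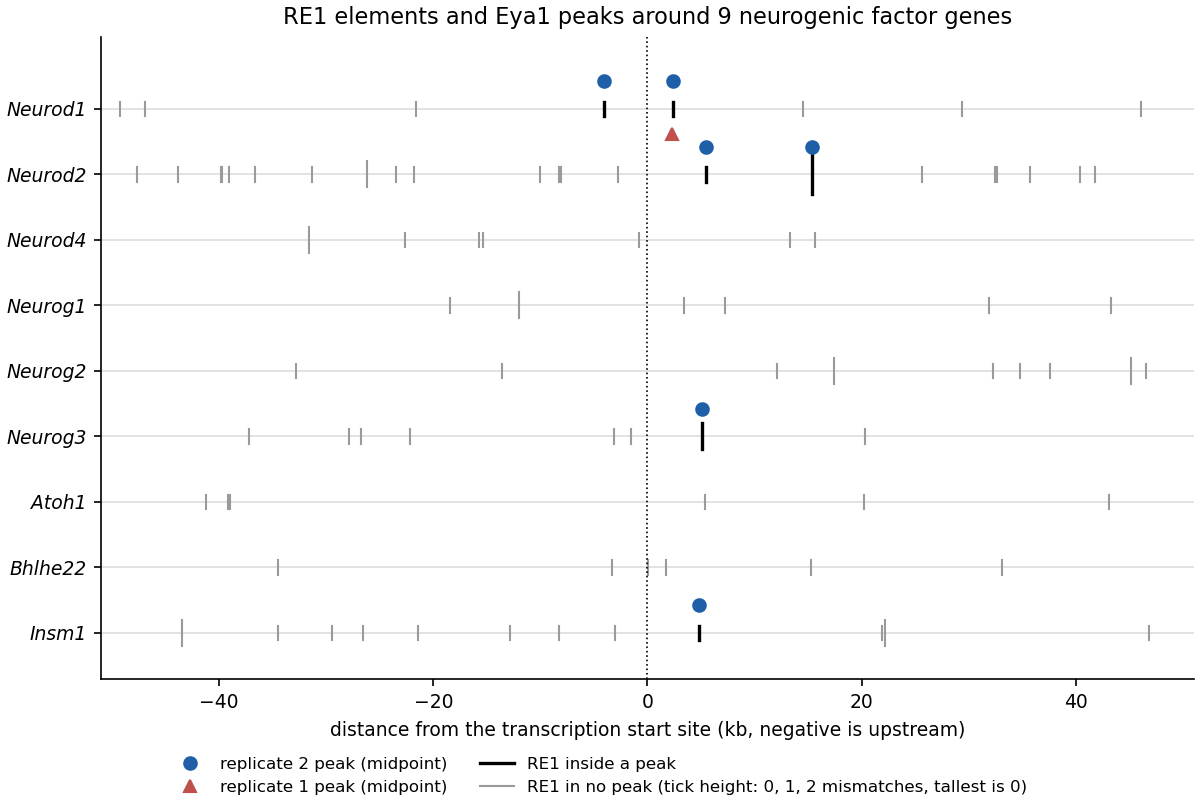
Positions of RE1 elements and Eya1 peaks within 50 kb of the TSS of each of the 9 genes (x axis, kb, negative is upstream of the gene). Vertical ticks are the 84 elements with at most 2 mismatches (taller ticks have fewer mismatches; black, inside a peak; grey, in no peak), circles are replicate 2 peaks and the triangle is the replicate 1 peak. All 7 peaks sit on an element, and 78 of the 84 elements have no peak.

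Shared features of the 6 replicate 2 peaks were examined next. They were 135 to 245 bp wide with a median of 145.5 bp, against 188 bp for all peaks of that list. The distance between the centre of the RE1 and the midpoint of the peak was 2 to 47 bp, with a median of 3 bp. Distal RE1 peaks of replicate 2, of which there were 477 among 630 distal peaks (75.7%), had a median width of 158 bp and a median distance of 10 bp. The 5 peaks at the neurogenic genes that belong to this class, all but that in the Neurod1 coding exon, were 135 to 160 bp wide. Of the 477, 31.9% overlapped a replicate 1 peak. Of the 5 distal peaks at these genes, 0 did. In replicate 1 there were 154 distal RE1 peaks, of which 96.1% overlapped a replicate 2 peak.

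**Figure D4:**
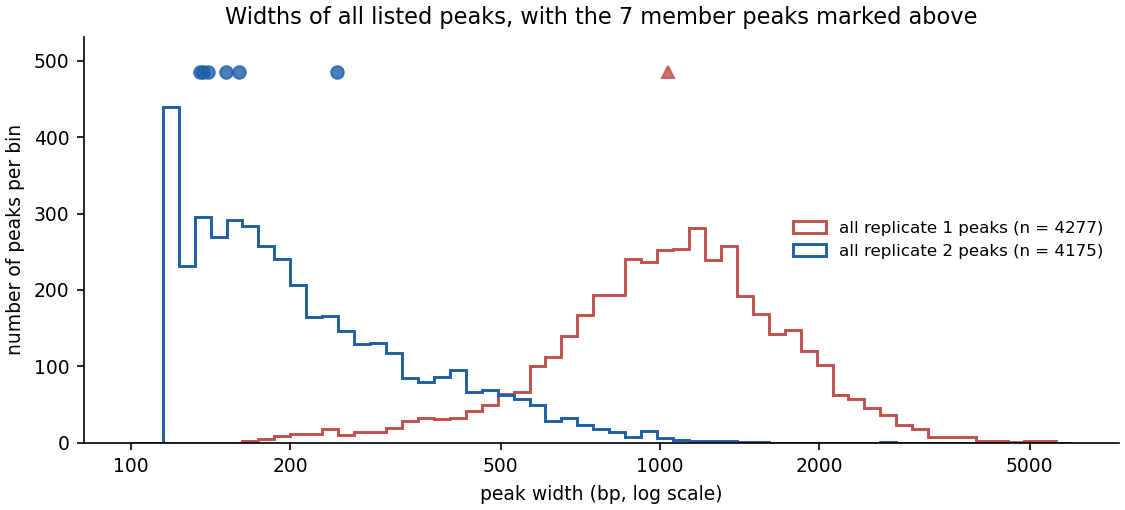
Distribution of peak widths (x axis, bp on a log scale; y axis, number of peaks per bin) for replicate 1 (red) and replicate 2 (blue), with the 7 peaks at the neurogenic genes marked above. The 6 replicate 2 peaks (circles) span 135 to 245 bp, and the replicate 1 peak (triangle, 1037 bp) sits near the middle of its own list.

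Most RE1 matches near these genes had no peak. Within 50 kb of the 9 start sites there were 84 elements, of which 1 had 0 mismatches, 8 had 1 and 75 had 2. The number per gene ranged from 6 (Neurog1, Atoh1 and Bhlhe22) to 22 (Neurod2), with a median of 8, which was also the median of all protein-coding genes. For elements with 0 or 1 mismatch the medians differed, at 1.0 in the 9 genes and 0.0 in all protein-coding genes (means 1.0 and 0.644). Of the 84, 6 lay inside a peak (7.14%), against 0.702% of the 188342 elements of the genome in a peak of either replicate. The genome-wide set was not limited to elements within 50 kb of a start site, so the sets are unlike. This holds for the genome-wide shares below as well. In replicate 2 the elements inside a peak at these genes were 1 of 1 with 0 mismatches, 1 of 8 with 1 mismatch and 4 of 75 with 2 mismatches. The genome-wide shares in replicate 2 were 30.1% for 0 mismatches, 2.45% for 1 mismatch and 0.175% for 2 mismatches. In replicate 1 only 1 element, with 2 mismatches, was inside a peak at these genes, and the genome-wide shares were 13.6%, 1.31% and 0.365%.

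The number of mismatches alone did not separate elements with and without a peak, since 7 elements with 1 mismatch had none while 4 with 2 mismatches had one. All 6 elements inside peaks kept the bases GCACC at positions 5 to 9 and GG at positions 12 and 13. Their mismatches fell at positions 1, 2, 4, 14, 16 and 17. By contrast, the 7 elements with 1 mismatch and no peak had it at position 5 (Neurog1 and Neurog2), 8 (Neurod4, Neurog2 and Insm1), 9 (Neurod2) or 17 (Insm1). The elements of Neurod4 and Neurog1 among these lay wholly in sequence that the reference masks as repeats, whereas 0 of the 6 elements inside peaks did. Examples of elements with 1 mismatch that were not in a peak are shown for comparison, in the same format.
Neurog2, chr3:127678313-127678329 (plus strand): caaaTTTAcCACCTTGGACAGatca
Neurod2, chr11:98355821-98355837 (minus strand): ctccTTCAGCACaGCAGAGAGcgca
Insm1, chr2:146244105-146244121 (minus strand): gctgTTCAGAGtCCAAGACAGgcct

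This core of GCACC and GG was picked after the 6 elements had been seen, so their agreement with it is a description. The core is narrower than the consensus, which allows A or C at position 6 and A or G at positions 7 and 12. An element with 0 mismatches can therefore lack the core. In all, 8 of the 84 elements kept the core, and 6 of these were inside a replicate 2 peak and 1 inside a replicate 1 peak. Of the 76 elements without the core, 0 were inside a peak. The 2 elements that kept the core and had no peak were 5.41 kb downstream of Atoh1 and 21.9 kb downstream of Insm1, each with 2 mismatches (T1C and A4C at Atoh1, T1G and T2A at Insm1).
Atoh1, chr6:64734526-64734542 (plus strand): gacgcTCcGCACCGGGGCCAGgagc
Insm1, chr2:146243827-146243843 (plus strand): cggagaCAGCACCAGGGCCAGgaca

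Across the genome, elements with the core were more often inside a peak at each number of mismatches, although not at each position of the core. In replicate 2, elements that kept the core were inside a peak in 58.3% of 321 cases with 0 mismatches, 15.1% of 1035 with 1 and 1.79% of 4626 with 2. Without the core the shares were 6.72% of 387, 1.36% of 11963 and 0.131% of 170010. Replicate 1 gave 26.8%, 6.86% and 1.21% with the core and 2.58%, 0.828% and 0.342% without it. These genome-wide counts include the elements at the 9 genes, and elements that fall in the same peak are not independent. Among elements with 1 mismatch, those with the mismatch at core position 8 were inside a replicate 2 peak in 0 of 2146 cases. For those with it at position 1, outside the core, the share was 9.0%. At the other positions outside the core the shares ran from 0.364% (position 4) to 2.59% (position 14). At core positions other than 6 they ran from 0.0% (positions 7 and 8) to 1.82% (position 9), so these ranges overlapped. Core position 6 stood apart. Elements with their mismatch there lack the core, yet 90 of 538 (16.7%) were inside a replicate 2 peak, the highest share of any position and above the 15.1% of elements with the core. They made up 90 of the 163 elements with 1 mismatch and no core that were inside a replicate 2 peak.

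**Figure D5:**
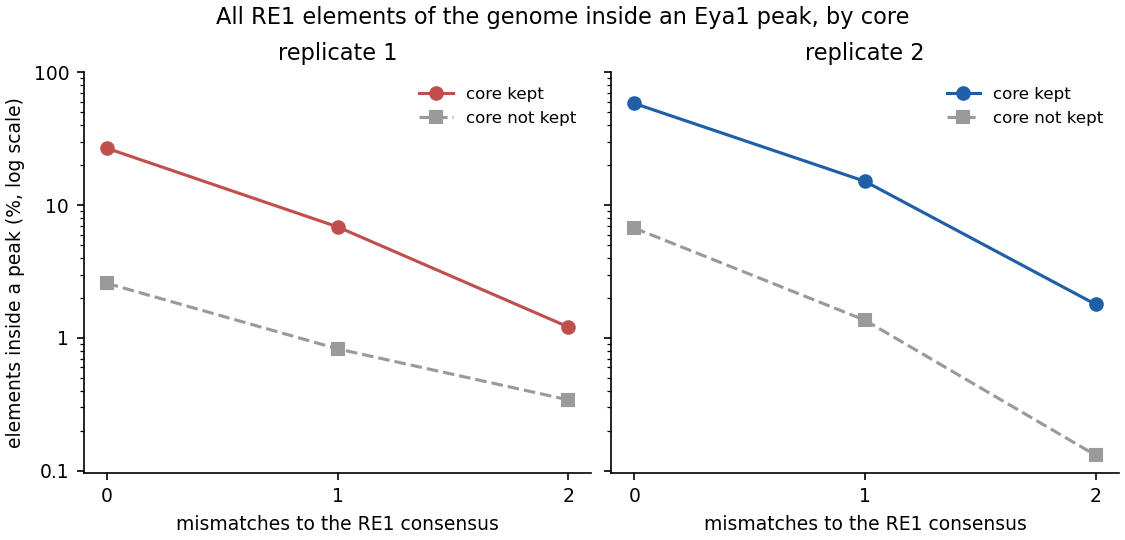
Percentage of all RE1 elements of the genome that lay inside an Eya1 peak (y axis, log scale) by number of mismatches (x axis), for elements that kept GCACC and GG (coloured circles) and those that did not (grey squares), in replicate 1 (left) and replicate 2 (right). In both lists the elements with the core had the higher share at 0, 1 and 2 mismatches, and in replicate 2 the share was 58.3% against 6.72% at 0 mismatches.

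Other sequence patterns were counted in 200-bp windows centred on the replicate 2 peaks, on both strands. An RE1 was in 6 of the 6 windows at these genes, in 16.8% of windows on all replicate 2 peaks, in 75.6% of those on distal peaks and in 1.68% of windows 1 kb away. The E-box (CANNTG), the sequence that bHLH factors themselves bind, was in 4 of 6 windows, against 39.5% of all peaks, 59.7% of distal peaks and 59.9% of windows 1 kb away. The pattern TCANGTTTC, a recognition sequence of the homeodomain factors that partner with Eya proteins, was in 0 of 6 windows, against 0.24% of all peaks and 0.793% of windows 1 kb away. At this frequency 6 windows could not show a difference. In its 200-bp window the replicate 1 peak at Neurod1 held no RE1, while 5.4% of all replicate 1 peaks held one.

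Most promoters of these genes, where no peak was listed, were GC-rich. The 2 kb around the start site had a median GC content of 58.7% in the 9 genes against 51.2% in all protein-coding genes, and among the 9 ranged from 41.4% (Neurod4) to 71.1% (Insm1). The median CpG observed-to-expected ratios were 0.682 and 0.475. The loci were also sparse, with a median of 1 other protein-coding gene within 50 kb (range 0 to 2), against 2 (range 0 to 19) for all genes. Whether this bears on the peak counts was not tested. RefSeq promoter sequences (GRCm38.p6, 250 bases before to 50 after the start) were matched for 7 of the 9 genes, Bhlhe22 and Insm1 being without a match. An RE1 was found in 0 of these 7, against 2.84% of 32851 promoters, and an E-box in 5 of 7, against 72.3%.

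Related genes were then counted by the same rules. Of 38 other proneural and neuroendocrine factors, 7 had a promoter peak in either list (18.4%, against 23.5% of all protein-coding genes), namely Insm2, Pou4f3, Scrt1, Scrt2, Lhx3, Sox4 and Sox11. An RE1 peak lay within 50 kb of 9 of them in either list (23.7%, against 11.1% of all genes), of which 5 had it in both lists. Of the 9 genes with an RE1 peak, 5 belong to the Lhx and Pou4 families. Lhx3, a LIM-homeodomain factor of motor neurons, and Scrt1, a neural zinc-finger repressor, had an RE1 with 0 mismatches in a peak at the start site in both lists (501 and 206 bp wide for Lhx3, 2693 and 564 bp for Scrt1 in replicates 1 and 2). The LIM-homeodomain gene Lhx5 had such an element in peaks 231 and 197 bp wide, whose nearer edges were 7.38 and 7.4 kb upstream, in replicates 1 and 2.

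The 3 Pou4 genes encode POU factors of sensory neurons, and each had an RE1 with 0 mismatches in a replicate 2 peak. At Pou4f3 the peaks were 785 and 214 bp wide in replicates 1 and 2 and overlapped the gene body. At Pou4f2 peaks of 186 and 168 bp lay 5.10 and 5.07 kb downstream of the start. Pou4f1 had a peak in replicate 2 only, 11.3 kb from its start and 148 bp wide. Also in replicate 2 only were peaks with an element of 0 mismatches 16.4 kb (peak edge) upstream of Ptf1a, a pancreatic and neural bHLH factor (137 bp), and of 1 mismatch 20.8 kb from Bhlhe23 (190 bp, nearest to the start of Slc17a9). An RE1 peak in both lists was thus present at 5 of the 38 related genes (13.2%) and at 1 of the 9 neurogenic genes (11.1%), against 3.43% of all protein-coding genes. The element in both lists had 0 mismatches at each of the 5 related genes but 2 mismatches at the neurogenic gene, Neurod1.

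The E proteins are dimer partners of the proneural factors. Of the 3 genes, Tcf3 and Tcf12 had promoter peaks in both lists, as did 11.5% of all protein-coding genes, Tcf4 had none, and 0 of the 3 had an RE1 peak within 50 kb. Of 10 inhibitors of proneural factors, Id1, Id2 and Id3 had a promoter peak in either list (30.0%, against 23.5% of all genes), and Id3 had it in both (10.0%, against 11.5%). An RE1 peak lay near 1 of the 10 in either list (10.0%, against 11.1%). This was Hes3, with a peak 1.5 kb from its start in replicate 2 and an element of 2 mismatches.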

How the data were processed

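Mouse E13.5 kidney Eya1 ChIP-seq peaks were analysed from 2 replicates. According to the methods of the study, the authors aligned reads to mm10 with Bowtie and called peaks with MACS at various cutoffs against input or IgG, and used the peaks common to both. The submitters' processing notes name HISAT2. Which cutoff and control each list rests on is not given in the sources used here. The deposited lists have 3 columns (chromosome, start and end) and hold no score or depth, so no interval or floor was computed.

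Positions were compared with GENCODE M21 (132758 start sites) and GRCm38.p6. No peak went beyond a chromosome end. Peaks counted as shared at an overlap of 1 bp. RE1 was searched over whole peaks and the genome, and an element counted as inside a peak when wholly within it. The 11 mitochondrial peaks of replicate 2 were left out of 200-bp windows. Scripts used Python 3.11.15, numpy 2.4.6 and matplotlib 3.10.9 and were tested on simulated data. No significance test was made.

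The 9 genes, the related lists and the rules were chosen with earlier results of these data known, and Insm1 was known from the study. All 9 genes were named with every peak within 50 kb, and related genes were named where an RE1 of 0 or 1 mismatch lay in such a peak. Genes given as examples in counts of 10 or fewer, and 2-mismatch Hes3, were named after their values were seen. Alternatives were the replicates, peak width, distances, start sites, windows, mismatches and overlap. A gene and a sequence are not reported here.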

Additional observations from a re-analysis of the deposited data

How the results depend on the processing

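Of 42 alternative values for 6 counts, 26 stayed within 1.5 times the reported count and 16 moved. Genes with a promoter peak went from 0 to 1 at a distance of 2 kb (Neurod1) and to 3 at 5 kb (Neurod1, Neurog3 and Insm1). For changed distances, widths and mismatch limits no share of all protein-coding genes is given. Those gene counts therefore cannot be set against a background. The gene-body count was 1 under each alternative tried. Genes with a peak within 50 kb went from 4 to 1 when both replicates were required and to 1 with only the wider part of each list (peaks of median width or more), and ranged from 1 to 4 when either replicate was left out. Genes with an RE1 peak within 50 kb went from 4 to 1 under both of those settings, to 1 with 0 mismatches and to 2 with at most 1 mismatch, and ranged from 1 to 4 with a replicate left out. Elements inside a peak went from 6 to 1 in both replicates, 1 in the wider peaks, 1 with 0 mismatches and 2 with at most 1, and ranged from 1 to 6 with a replicate left out. Keeping only elements with GCACC and GG, an alternative chosen after seeing the data, left 6. This value was fixed in advance, because the core was picked from those same 6 elements, yet it is among the 26 that stayed. Peaks shared by both lists went from 2 to 0 when the overlap had to cover 50% of both peaks. Replicate 2 carries the peaks at Neurod2, Neurog3 and Insm1, and without it only Neurod1 had a peak. No paired analysis was possible because the control samples had no list used here and both lists belong to the Eya1 ChIP group. The lists hold no read depth or peak height, so a peak just below the calling threshold cannot be told apart from none.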

Other observations

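Masking of repeats differed between RE1 elements inside and outside Eya1 peaks over the whole genome. Of elements in a peak of either list, 0 of 217 with 0 mismatches, 0 of 347 with 1 mismatch and 6 of 758 with 2 mismatches (0.792%) lay wholly in repeat-masked sequence. Of elements in no peak the shares were 2.44%, 13.2% and 18.1%. None of the 6 elements inside peaks at the 9 neurogenic genes was masked in this way.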
